A study of Mus musculus with 6 samples.

Results

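Collagens, laminins and the proteins that link them form the extracellular matrix, and 59 of the 25302 genes measured here belong to these families. They were taken by symbol, as every numbered collagen chain (44 genes), every laminin chain (11 genes), the nidogens Nid1 and Nid2, perlecan (Hspg2) and agrin (Agrn). RNA was sequenced from biliary epithelial cells, the lining of the bile ducts, of mouse liver. The Control group (3 samples) was Sox9fl/fl, that is, homozygous for a floxed allele of the transcription factor gene Sox9. The Sox9cKO group (3 samples) was Sox9fl/fl:AlbCre+/-, carrying the same floxed alleles and AlbCre, a transgene for the Cre recombinase under the promoter of the albumin gene, which is active in the cell lineage that gives rise to both hepatocytes and biliary cells. Both groups thus carried the floxed alleles, and the transgene was in the Sox9cKO group alone. Age, sex and the way the cells were isolated are not given in the sources used here.

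A basement membrane is a thin sheet under most epithelia. Its laminins are trimers of an alpha, a beta and a gamma chain that polymerise at the cell surface, and type IV collagen forms a second network that nidogens and perlecan connect to the laminin. Fibrillar collagens build the fibres of the stroma beyond it. In liver, bile ducts rest on a basement membrane, whereas most fibrillar collagen is made by stellate cells and portal fibroblasts. In cartilage, SOX9 is known as a direct activator of the collagen genes Col2a1, Col9a1, Col11a2 and Col27a1.

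Between 11883496 and 16191990 reads per sample were assigned to genes. Sox9 itself had normalized read counts (reads over the size factor of each library) of 6211, 6043 and 6293 in the Control samples and 3363, 3165 and 3340 in the Sox9cKO samples, here and below in the order of replicates 1, 2 and 3. The libraries thus followed their labels, with Sox9 RNA still present in Sox9cKO. Its log2 fold change was -0.91 ± 0.095 (standard error; limma, adjusted p = 0.00501). All 10 listed biliary markers were detected, with sums of 95908 to 136759 normalized reads in Control and 89536 to 118622 in Sox9cKO. Markers of endothelium (10 genes, all detected) varied most, with sums of 10312, 32130 and 1461 for Control and of 25205, 32722 and 5323 for Sox9cKO. Replicate 3 of both groups was thus the lowest for endothelial RNA. The 14 fibroblast and stellate markers summed to between 5606 and 6318 in Control and between 5735 and 7537 in Sox9cKO, and Thy1 among them had no read in Control replicate 3. Mesothelial markers summed to 934 to 964 against 1144 to 2159. Hepatocyte markers summed to 21056 to 33240 against 40174 to 69802, and leukocyte and erythroid markers to 1044 to 1119 against 1513 to 1826. These last 3 sums were higher in every Sox9cKO sample than in any Control sample, each through 1 gene (Msln, Apob and Csf1r). In sums without that gene, a choice made after the values were seen, hepatocyte markers overlapped (18815 to 29928 against 22991 to 37238), and mesothelial markers (566 to 691 against 317 to 491) and leukocyte and erythroid markers (247 to 372 against 188 to 248) were mostly lower in Sox9cKO. The part of these cell types in the results that follow was not tested. In bulk RNA, more cells of a type and more RNA per cell cannot be told apart.

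Of the 59 genes, 46 had a mean of at least 10 normalized reads and were tested. A gene is called here when its limma p-value, adjusted over all 17153 tested genes, is under 0.05. In the comparison of Sox9cKO with Control, 9 of the 46 were called (19.6%), against 2.97% of all tested genes. There were 7 higher (15.2%, against 2.03%), namely Lama3, Lamb3, Lamc1, Col16a1, Col12a1, Col5a3 and Col18a1. There were 2 lower (4.35%, against 0.939%), namely Col27a1 and Lamc3. Replicates of the same number deviated together across groups, so a second fit, blocked by that number (below, "with the block"), is given where it changes a call. In it 23 of the 46 were called, 17 higher and 6 lower, against 8.05% of all genes (5.06% higher and 2.99% lower). The Sox9cKO values lay wholly above the Control values for 15 of the 46 (32.6%, against 13.4% of all tested genes) and wholly below for 6 (13.0%, against 10.8%), and 24.2% of all tested genes were apart in either direction. The median log2 fold change was 0.54 over these genes and 0.036 over all genes tested, and 35 of the 46 were above 0 (76.1%, against 54.2%). Col2a1 and Col25a1 passed the filter only through their Control means of 21.5 and 12.8.

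**Figure D1:**
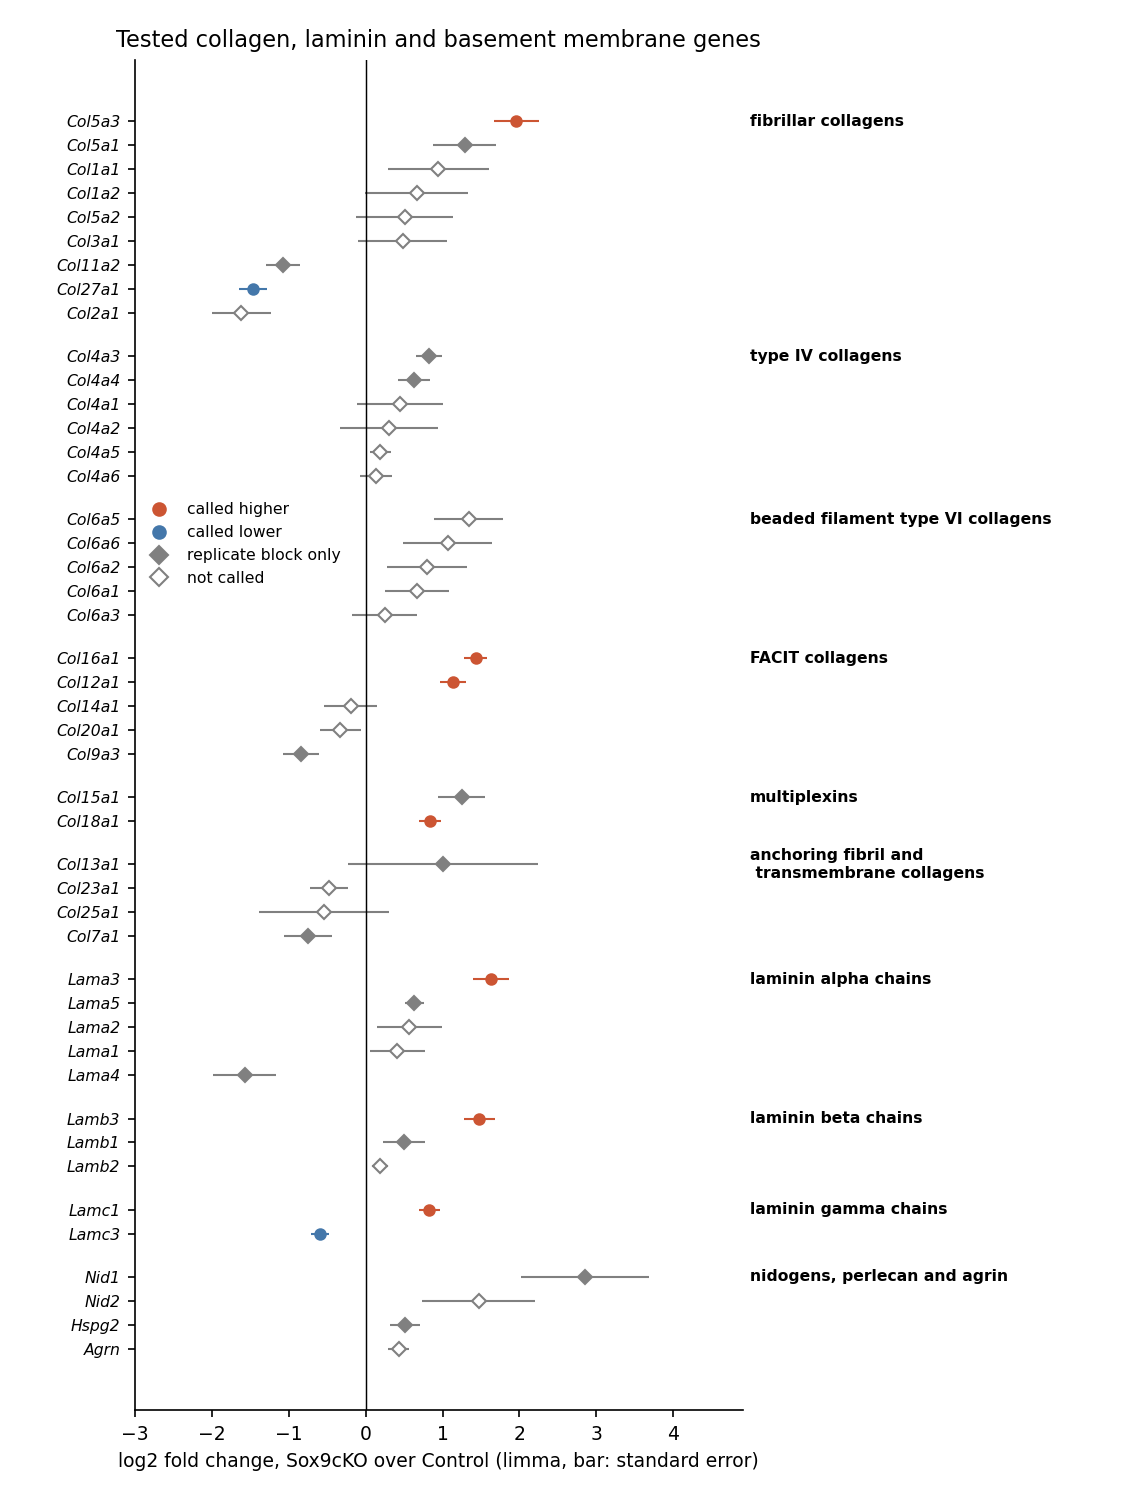
Log2 fold change (x axis, Sox9cKO over Control, bars are standard errors) of tested genes, grouped by role. Filled circles are the 9 called genes, filled diamonds those called only with the block, and most points lie right of 0, with Col27a1, Lamc3, Lama4 and Col11a2 among those to the left.

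Several laminin genes changed, and the direction differed by chain. Lama3 and Lamb3, chains of the laminin that anchors epithelial cells through hemidesmosomes, rose 3.14-fold and 2.80-fold. Lamc1, the common gamma chain, rose 1.79-fold, while Lamc3, an alternative gamma chain, fell to 66.6% of its Control mean. Lama5, a main alpha chain of mature epithelial basement membrane, was 1.55-fold higher but narrowly missed the threshold. Over the 11 chains, 3 were called higher and 1 lower, against 2.03% and 0.939% of all tested genes. The median log2 fold change was 0.57, against 0.036 over all tested genes.

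Lama3 (ENSMUSG00000024421) had normalized read counts of 1036, 881 and 1257 in Control and 3419, 2353 and 4207 in Sox9cKO. The lowest Sox9cKO sample lay well above the highest Control sample. The means were 1058 ± 189 and 3326 ± 930 (SD, n = 3), a log2 fold change of 1.63 ± 0.23 (standard error; limma, adjusted p = 0.014). The call was lost without Control replicate 1 and without Sox9cKO replicate 1, with limma adjusted p-values up to 0.0757. Lamb3 (ENSMUSG00000026639) had 784, 600 and 841 in Control and 2184, 1596 and 2450 in Sox9cKO. These groups did not overlap either, and replicate 2 was the lowest of its group for both genes. The biliary sum was also lowest in replicate 2 of both groups (136759, 95908 and 122167 in Control, 118622, 89536 and 101609 in Sox9cKO). So was the hepatocyte sum (33240, 21056 and 22975 in Control, 51552, 40174 and 69802 in Sox9cKO), with or without Apob. The mesothelial sum was lowest there in Sox9cKO (2159, 1144 and 2149). In Control it was highest there (934, 964 and 955), in both cases with or without Msln. The part of these cell types was not tested. The Lamb3 means were 742 ± 126 and 2077 ± 437 (SD, n = 3), a log2 fold change of 1.48 ± 0.20 (standard error; limma, adjusted p = 0.0117, or 0.0559 without Control replicate 1). Per kilobase of exon, Lama3 over Lamb3 stayed between 0.813 and 1.06 in the 6 samples. The ratio of the alpha to the beta chain thus changed little between the samples of both groups. Its size depends on the exon lengths used, which join all annotated exons of a gene.

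Among the gamma chains, Lamc1 (ENSMUSG00000026478), which pairs with most alpha and beta chains, had 4394, 4106 and 4737 in Control and 8031, 6629 and 9010 in Sox9cKO. It was called, with a log2 fold change of 0.83 and a standard error of 0.14 (limma, adjusted p = 0.0273). That call was kept without Sox9cKO replicate 2 and lost when any other single sample was left out (adjusted p up to 0.126), or without the intensity trend in limma (0.0761). Lamc3 (ENSMUSG00000026840) had 3713, 3628 and 3794 in Control, a narrow range, and 2273, 2339 and 2803 in Sox9cKO. Its log2 fold change was -0.59 ± 0.12 (standard error; limma, adjusted p = 0.0458). Without Sox9cKO replicate 3 the call was kept, and it was lost when any other single sample was left out (adjusted p up to 0.176), without the intensity trend (0.118) and without the filter on low values (0.0525). In the mouse annotation 6.27% of the exon bases of Lamc3 overlap an exon of Gm13441 on the other strand, and it is not stated whether counting used the strand.

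**Figure D2:**
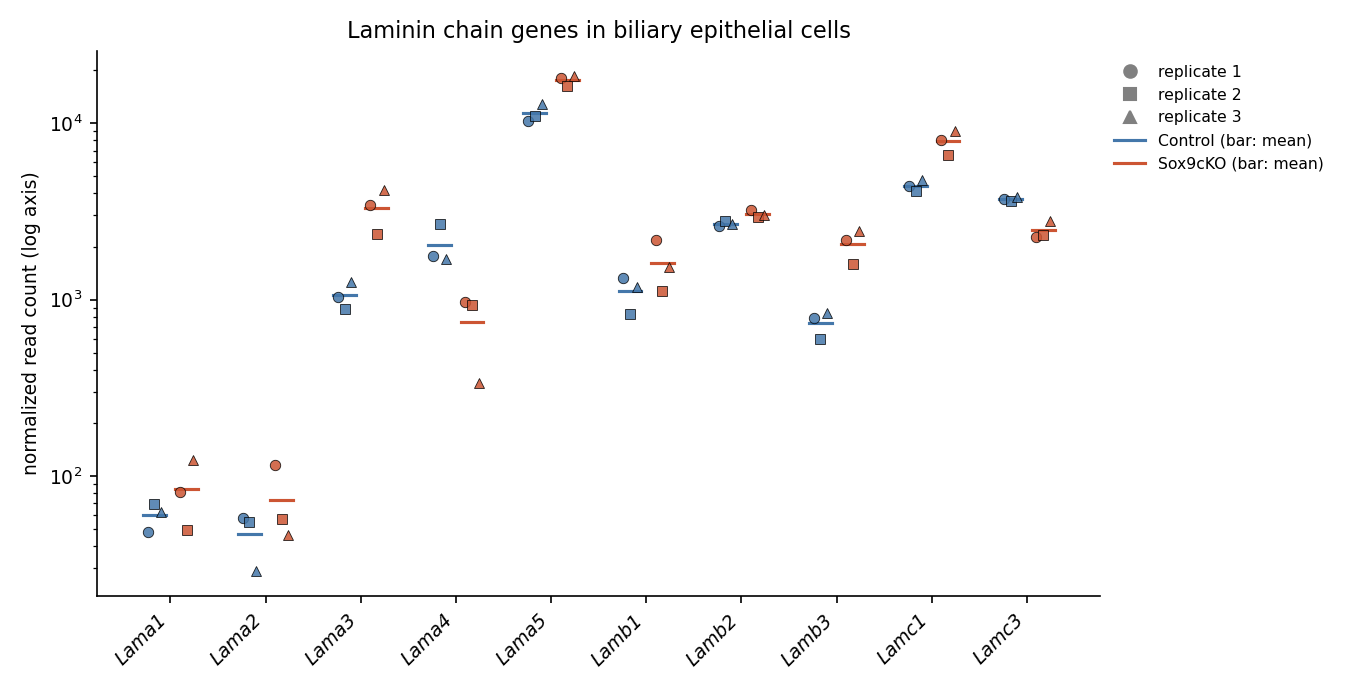
Normalized read counts (log axis) of laminin chain genes, with 1 point per sample and a bar at the group mean. Lama3, Lamb3, Lamc1 and Lama5 are higher in all 3 Sox9cKO samples than in any Control sample (as is Lamb2, by little), and Lama4 and Lamc3 are lower.

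Among the other alpha chains, Lama5 (ENSMUSG00000015647) had 10316, 11024 and 12810 in Control and 18063, 16169 and 18627 in Sox9cKO. The groups did not overlap, and the adjusted p was 0.0503 (limma, log2 fold change 0.63, standard error 0.13), and 0.0188 with the block. It also passed in 5 of the other alternative fits, among them DESeq2 and quantile normalization. Lama4 (ENSMUSG00000019846), the alpha chain of vessels and mesenchyme, stood apart in the other direction with 1771, 2682 and 1696 in Control and 970, 931 and 338 in Sox9cKO. Every Sox9cKO value was lower, yet the scatter was wide (log2 fold change -1.57, standard error 0.41), and the adjusted p from limma was 0.104, and 0.0151 with the block. Within Control the order of Lama4 was that of the endothelial marker sums, and replicate 3 was the lowest of both groups for both. The sums themselves were not lower in Sox9cKO, and the part of endothelial RNA was not tested. Lama1 and Lama2 were scarce, between 28.8 and 123 normalized reads in every sample, and their groups overlapped.

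Of the beta chains, Lamb2 (ENSMUSG00000052911), the most abundant one per kilobase, had 2616, 2773 and 2690 in Control and 3241, 2944 and 3012 in Sox9cKO. Although these values did not overlap, the difference was small (log2 fold change 0.19, standard error 0.099; limma, adjusted p = 0.384). Lamb1 (ENSMUSG00000002900) had 1332, 832 and 1180 in Control and 2173, 1115 and 1528 in Sox9cKO. Its groups overlapped, but within each replicate number the Sox9cKO value was the higher one, and the adjusted p was 0.043 with the block against 0.400 without it (limma, log2 fold change 0.50).

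Levels per kilobase of exon let the chains of a class be set against each other, as a share of the class sum in each sample. The size of these shares depends on the exon lengths, which join all annotated exons of a gene. Lama5 held most of the alpha class in both groups, 78.2% ± 2.7 in Control and 80.2% ± 1.8 in Sox9cKO (SD, n = 3). Within the rest of the class, Lama3 was at 7.71% ± 1.1 and 15.8% ± 3.1, and Lama4 was at 13.4% ± 3.7 and 3.28% ± 1.7 of the alpha class. Lamb3 had a share of 16.7% ± 2.1 of the beta class in Control and 31.9% ± 3.9 in Sox9cKO, while Lamb2 had 66.5% ± 5.1 and 51.9% ± 5.1. For Lama3, Lama4, Lamb2 and Lamb3 the shares of the groups did not overlap. These shares describe the same reads as the fold changes above and were not tested again.

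**Figure D3:**
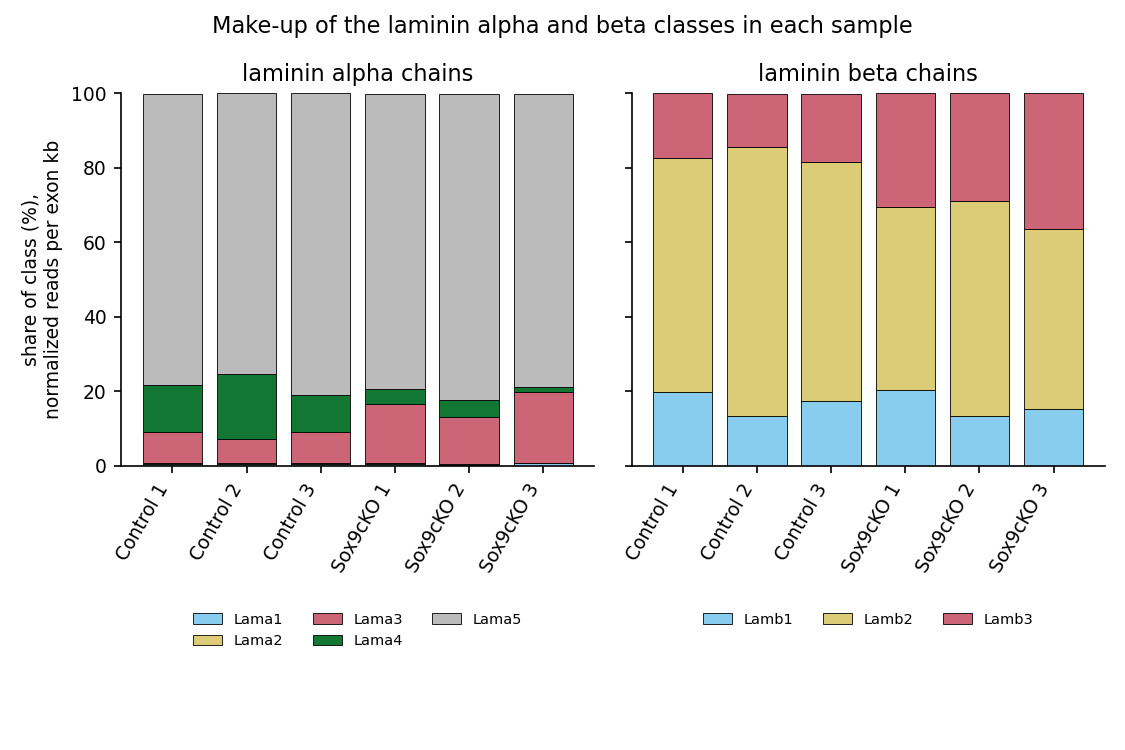
Share of each laminin alpha and beta chain (y axis, percent) in the summed normalized reads per exon kilobase of its class, with 1 bar per sample. Lama3 and Lamb3 take larger shares and Lama4 and Lamb2 smaller shares in the 3 Sox9cKO samples, while Lama5 stays near 80% of the alpha class.

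The promoter of Lamb3 is shown as the regulatory sequence next to one of the largest called rises among these genes. It is the 250 bases before the RefSeq start at chr1:193301744-193301993 (GRCm38.p6, plus strand), printed 5′ to 3′ with motif matches in capitals.
Lamb3: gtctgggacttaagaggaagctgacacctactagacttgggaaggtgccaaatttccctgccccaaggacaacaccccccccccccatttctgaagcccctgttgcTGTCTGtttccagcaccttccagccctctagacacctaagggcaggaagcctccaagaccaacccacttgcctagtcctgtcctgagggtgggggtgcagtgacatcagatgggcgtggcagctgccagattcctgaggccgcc
The capitals mark CAGACA on the opposite strand, the core of the CAGA box that SMAD proteins bind. This window was 58.8% G and C, with 2 CG dinucleotides. Windows of the same length were searched on both strands for CAGACA, for AACAAT and ACAATG (letters of the SOX consensus, which overlap each other), for TGANTCA (the AP-1 site) and for TATAAA (the TATA box). Windows were found for 43 of the 59 genes, and a gene was counted if any of its windows held the motif. Percentages are of single windows, so they are not a like measure to the counts of genes. CAGACA occurred in windows of 11 of these 43 genes (Lamb3, Lamb2, Col18a1, Col1a2, Col3a1, Col5a1, Col7a1, Col8a1, Col9a2, Col20a1 and Col28a1) and in 17.1% of all 32851 windows. AACAAT was found for Col3a1 alone (9.42% of all windows), ACAATG for Col28a1 alone (10.7%) and TGANTCA for Col6a1 alone (6.75%).

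Genes of the proteins that link laminin to type IV collagen and to the cell included Nid1 and Nid2, which varied widely between samples. Nid1 (ENSMUSG00000005397), which bridges laminin and type IV collagen, had 473, 1450 and 106 in Control and 2662, 4248 and 2454 in Sox9cKO. Every Sox9cKO sample was above every Control sample, and the means differed 4.62-fold. The Control samples themselves spanned a wide range, so that the log2 fold change of 2.85 had a standard error of 0.83 (adjusted p = 0.134 from limma, and 0.0198 with the block). Without Control replicate 2, Nid1 passed the threshold (adjusted p = 0.029), and it did so in none of the other fits that left out 1 sample. Within each group the order of Nid1 was that of the endothelial marker sums, replicate 2 first and replicate 3 last. In replicate 3 the endothelial sum was 1461 in Control and 5323 in Sox9cKO, and Nid1 was 106 and 2454. In replicate 1 the sums were 10312 and 25205, and Nid1 was 473 and 2662. In replicate 2 the sums were close, at 32130 and 32722, and Nid1 was 1450 and 4248. The part of endothelial RNA in this result was not tested.

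Nid2 (ENSMUSG00000021806), the second nidogen, had 47.1, 204 and 25.3 in Control and 297, 163 and 112 in Sox9cKO, with overlapping groups (limma, adjusted p = 0.359). The annotation places 8.45% of its exon bases opposite an exon of Rtraf. Hspg2 (ENSMUSG00000028763), the heparan sulfate proteoglycan perlecan, had 12773, 17396 and 12576 in Control and 19048, 25147 and 16854 in Sox9cKO. Its groups overlapped, while each Sox9cKO value exceeded the Control value of the same number, and the adjusted p from limma was 0.236, and 0.0307 with the block (log2 fold change 0.51, standard error 0.20). Agrn (ENSMUSG00000041936), a proteoglycan that binds laminin and dystroglycan, had 8913, 8476 and 8706 in Control and 9645, 12838 and 12915 in Sox9cKO. The groups were apart, though Sox9cKO replicate 1 was close to the Control samples (limma, log2 fold change 0.43, adjusted p = 0.177). None of these 4 genes was called without the replicate block, and 2 were with it, against 2.97% and 8.05% of all tested genes.

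Per kilobase of exon, Lama5 (999.6 normalized reads in the Control mean), Hspg2 (995.9), Agrn (937) and Col18a1 (703) had the highest levels of the 59 genes in Control. In Sox9cKO the same 4 led, at 1547, 1422, 1271 and 1244. All 4 encode basement membrane proteins, and Col1a1 and Col3a1, the main collagens of stroma, had 25.3 and 29.7 normalized reads per kilobase in Control.

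Type IV collagen, the basement membrane network, is built from chains whose genes lie head to head in pairs. Col4a1 (ENSMUSG00000031502) and Col4a2 (ENSMUSG00000031503) form the common trimer. Col4a1 had 3651, 6173 and 1869 in Control and 7319, 6633 and 2200 in Sox9cKO, and Col4a2 had 2308, 4096 and 1203 against 4897, 3992 and 1082. Replicate number separated these values far more than genotype did, with replicate 3 low in both groups, and the log2 fold changes of 0.45 (standard error 0.56) and 0.30 (standard error 0.64) did not pass the test (limma, adjusted p = 0.737 and 0.857). Without Control replicate 3 both log2 fold changes were at or below 0 (-0.00093 and -0.15), as was that of Col4a2 without Sox9cKO replicate 1 (-0.11). Per kilobase, Col4a1 over Col4a2 was between 1.33 and 1.80 in the 6 samples. Both were lowest in replicate 3 of each group, as were the endothelial marker sums. In Control both genes and the sums were highest in replicate 2. In Sox9cKO both genes were highest in replicate 1 and the sums in replicate 2. Endothelial cells also make these chains, and the part of their RNA was not tested.

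Col4a3 (ENSMUSG00000079465) and Col4a4 (ENSMUSG00000067158), chains of the kidney-type trimer, were less abundant. Col4a3 had 465, 368 and 366 in Control and 745, 586 and 806 in Sox9cKO, without overlap. Replicate 3 was the lowest for Col4a3 in Control, narrowly, and the highest in Sox9cKO. The log2 fold change was 0.83 ± 0.17 (standard error; limma, adjusted p = 0.0532, and 0.018 with the block). An exon of C430014B12Rik overlaps 5.65% of its exon bases on the other strand. Col4a4 had 460, 362 and 361 in Control and 723, 453 and 674 in Sox9cKO, where Control replicate 1 overlapped Sox9cKO replicate 2. Its adjusted p from limma was 0.181, and 0.048 with the block (log2 fold change 0.62, standard error 0.21). The X-linked pair Col4a5 and Col4a6 differed little, with means of 1208 ± 121 and 1379 ± 159 for Col4a5 and of 179 ± 10.7 and 200 ± 47.2 for Col4a6 (SD, n = 3; limma, adjusted p = 0.533 and 0.789). Thus 0 of 6 type IV genes were called, and 2 with the block, against 2.97% and 8.05% of all tested genes. Their median log2 fold change was 0.37.

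**Figure D4:**
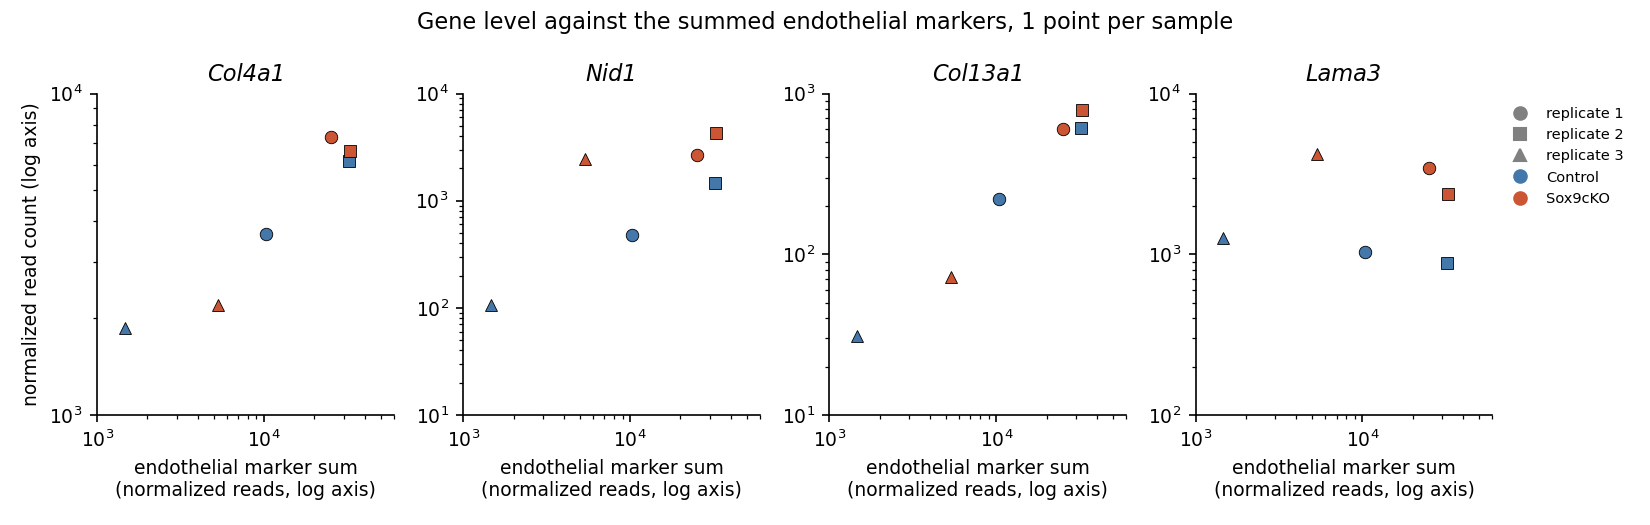
Normalized read count of Col4a1, Nid1, Col13a1 and Lama3 (y axes) against the summed normalized reads of 10 endothelial markers (x axes), both on log axes, with 1 point per sample. Col4a1 and Col13a1 are low in both samples with low endothelial sums. Each of these genes, and the sum itself, is higher in Sox9cKO replicate 3 than in Control replicate 3, Col4a1 by little. In replicate 2, where the sums of the groups are close, each gene is higher in Sox9cKO as well, Col4a1 again by little.

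The multiplexins are basement membrane collagens that carry heparan or chondroitin sulfate, and both had higher values in Sox9cKO. Col18a1 (ENSMUSG00000001435), the source of endostatin, had 5540, 4107 and 5159 in Control and 8226, 9540 and 8441 in Sox9cKO. It rose 1.77-fold, with no overlap between the groups and a log2 fold change of 0.83 ± 0.14 (standard error; limma, adjusted p = 0.0287). Its call was lost whichever single sample was left out (adjusted p up to 0.0912) and without the intensity trend (0.0773). Col15a1 (ENSMUSG00000028339) had 47.1, 39.0 and 54.1 in Control and 169, 82.2 and 99.6 in Sox9cKO, again without overlap. Its adjusted p from limma was 0.0898, and 0.0326 with the block (log2 fold change 1.25, standard error 0.31).

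Several collagens best known from cartilage had lower values in Sox9cKO, of which Col27a1 alone was called. This set (types II, IX, XI and XXVII) was put together after the values were seen, and Col10a1, of hypertrophic cartilage, is outside it, with 1, 3 and 2 reads in Control and 4, 3 and 1 in Sox9cKO. Col27a1, a fibrillar collagen of cartilage, fell to 35.8% of its Control mean and was the most abundant fibrillar collagen gene per kilobase in Control, at 99.5 normalized reads. Col11a2, Col9a3 and Col2a1 had Sox9cKO means of 48.0%, 55.6% and 29.7% of Control without passing the threshold, and Col9a1 had no read in any Sox9cKO sample.

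Col27a1 (ENSMUSG00000045672) had normalized read counts of 1471, 982 and 1436 in Control and 513, 469 and 409 in Sox9cKO. The highest Sox9cKO value was little more than the lowest Control value divided by 2. The means were 1296 ± 273 and 464 ± 52.5 (SD, n = 3), a log2 fold change of -1.46 ± 0.19 (standard error; limma, adjusted p = 0.0093, or 0.0518 without Control replicate 1). Col11a2 (ENSMUSG00000024330), a chain of the type XI fibril core, had 410, 397 and 516 in Control and 176, 180 and 280 in Sox9cKO. These groups were apart as well, and the adjusted p was 0.051 (limma, log2 fold change -1.08, standard error 0.22), and 0.00681 with the block and 0.0316 without Sox9cKO replicate 3. Col9a3 (ENSMUSG00000027570), a chain of the type IX collagen that decorates cartilage fibrils, had 258, 391 and 277 in Control and 132, 201 and 181 in Sox9cKO. It showed the same order of groups (limma, log2 fold change -0.84, standard error 0.23, adjusted p = 0.117, and 0.0216 with the block). Exons of Tcfl5 on the other strand cover 6.07% of the exon bases of Col9a3.

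The remaining genes of this set were close to the detection limit. Col2a1 (ENSMUSG00000022483), the main cartilage collagen, had 16.8, 22.3 and 25.3 in Control and 4.97, 8.51 and 5.66 in Sox9cKO (limma, log2 fold change -1.62, standard error 0.38, adjusted p = 0.0782). Col9a2 had 15, 10 and 6 reads in Control and 1, 5 and 0 in Sox9cKO, and Col9a1 had 7, 5 and 8 reads in Control and none in Sox9cKO. All 3 had groups that did not overlap. Of all tested genes 10.8% lay wholly lower in Sox9cKO, and Col9a1 and Col9a2 were not among those tested. Fewer genes were detected in every Sox9cKO library (23743, 24199 and 23770) than in any Control library (24969, 25084 and 24568). Without the filter on low values the median log2 fold change over all genes was -0.051, against 0.036 with it. Against a floor of 3 reads per library, Col9a1 was at least 2.14-fold lower in Sox9cKO, where the floor covers counting error only. Col11a1, the partner of Col11a2, had 8, 6 and 4 reads in Control and 5, 1 and 1 in Sox9cKO, with overlap. Col9a1, Col9a2 and Col11a1 were under the minimum mean. In limma without the filter on low values, Col9a1 passed (log2 fold change -2.88, adjusted p = 0.0254), and Col9a2 and Col11a1 did not (adjusted p = 0.149 and 0.333).

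Promoter windows of Col27a1 and Col11a2, made in the same way (GRCm38.p6, plus strand), are printed here because both genes are known SOX9 targets in cartilage.
Col27a1 (chr4:63215162-63215411): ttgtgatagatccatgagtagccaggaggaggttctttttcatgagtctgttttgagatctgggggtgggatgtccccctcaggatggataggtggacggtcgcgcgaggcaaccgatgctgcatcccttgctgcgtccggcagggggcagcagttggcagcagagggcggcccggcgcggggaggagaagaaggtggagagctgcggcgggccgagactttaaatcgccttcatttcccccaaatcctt
Col11a2 (chr17:34038888-34039137): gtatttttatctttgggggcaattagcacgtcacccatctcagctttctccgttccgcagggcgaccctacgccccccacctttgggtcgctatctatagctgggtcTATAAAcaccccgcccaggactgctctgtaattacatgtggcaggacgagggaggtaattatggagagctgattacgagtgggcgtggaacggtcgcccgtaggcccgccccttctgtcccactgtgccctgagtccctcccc
The capitals mark TATAAA, found in any window of Col11a2 and 4 other genes of the 43 (Col3a1, Col10a1, Col13a1 and Col17a1). Of all single windows, which is an unlike measure, 12.4% held it. In the window of Col27a1 none of the motifs searched was found, and in neither window were the letters AACAAT or ACAATG present, which covers these 250 bases only. The G and C content was 59.6% for Col27a1 and 57.6% for Col11a2, and the median of all windows was 52.4%.

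**Figure D5:**
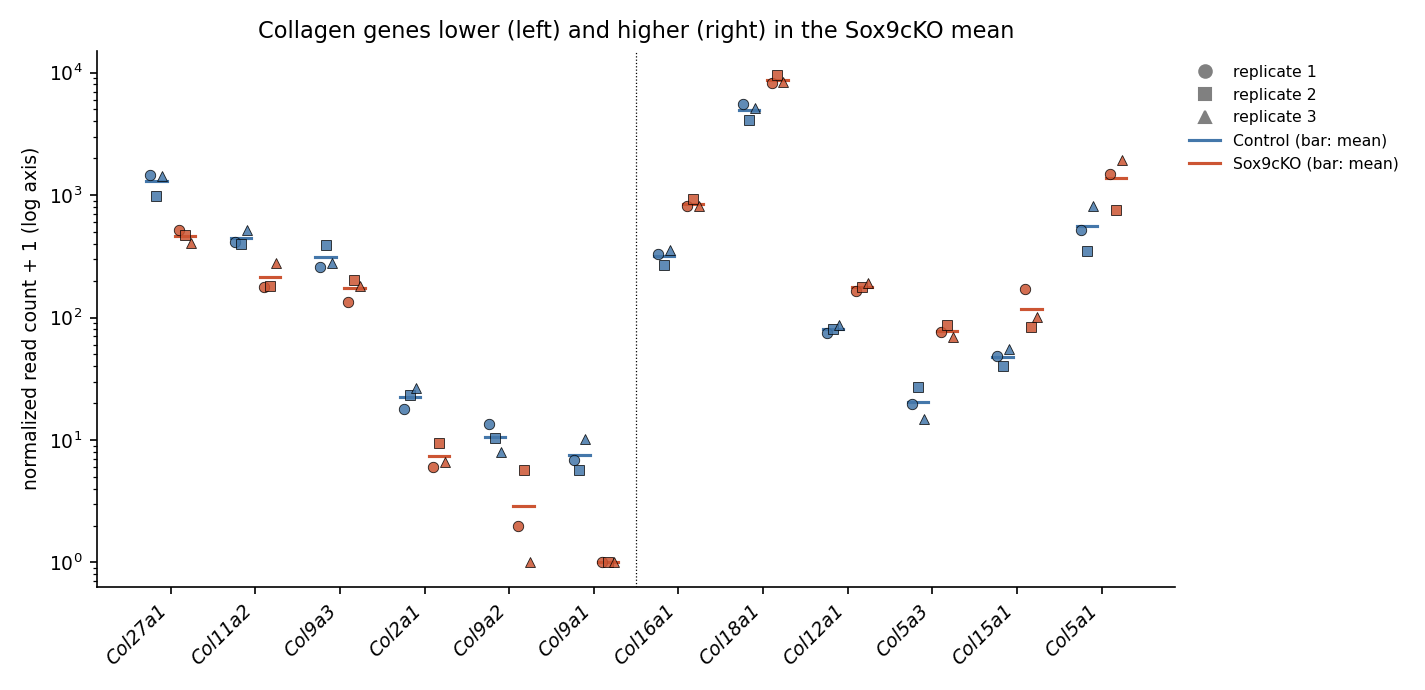
Normalized read count plus 1 (log axis) of 12 collagen genes, with 1 point per sample and a bar at the group mean. The 6 genes on the left (of types II, IX, XI and XXVII) are lower in every Sox9cKO sample than in any Control sample. They were chosen after the values were seen, and Col11a1 of type XI, whose groups overlap, is not drawn. Over all tested genes, which do not include Col9a1 and Col9a2, 10.8% lay wholly below Control. Of the 6 on the right all but Col5a1 are higher in every Sox9cKO sample.

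Fibrillar collagens of stroma mostly did not pass the test. Col5a3 (ENSMUSG00000004098), a type V chain, was the only called riser among the 9 tested fibrillar genes, with 18.5, 26.0 and 13.8 in Control and 75.6, 86.0 and 67.9 in Sox9cKO. That was a 3.94-fold difference from low levels, between 12 and 28 reads per Control library (limma, log2 fold change 1.96, standard error 0.30, adjusted p = 0.0183). The call was kept without Control replicate 2 and lost without any other single sample (adjusted p up to 0.086). Replicate 3, low for endothelial markers, was the lowest of both groups for Col5a3 and replicate 2 the highest, and the part of endothelial RNA was not tested. Col5a1 (ENSMUSG00000026837), the core type V chain that helps start collagen fibrils, had 519, 347 and 815 in Control and 1477, 752 and 1929 in Sox9cKO. Its groups overlapped, but each Sox9cKO value was 2.17 to 2.84 times the Control value of the same number, and the adjusted p from limma was 0.164, and 0.00238 with the block (log2 fold change 1.29, standard error 0.41).

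The chains of type I and III collagen, the bulk of scar tissue, were scarce, and their fold changes depended most on 1 sample. Col1a1 had 249, 174 and 76.0 in Control and 759, 197 and 158 in Sox9cKO. Col1a2 had 197, 142 and 63.4 against 527, 143 and 94.0, and Col3a1 had 435, 265 and 176 against 948, 273 and 214. Sox9cKO replicate 1 was the highest of the 6 samples for all 3 genes and for Col5a2, Col6a1, Col6a2 and Col6a3. Each Sox9cKO value of these 3 genes was above the Control value of the same number, by little in replicate 2. The log2 fold changes of Col1a1, Col1a2 and Col3a1 were 0.94, 0.66 and 0.48 (limma, adjusted p = 0.516, 0.671 and 0.724). Without Sox9cKO replicate 1 they were 0.245, -0.064 and -0.17, and without Control replicate 3 they were 0.465, 0.200 and 0.169. The summed fibroblast and stellate markers were also highest in Sox9cKO replicate 1, at 7537, and their part in these values was not tested. Over the fibrillar genes, 1 of 9 tested was called higher and 1 lower, against 2.03% and 0.939% of all tested genes. Their median log2 fold change was 0.51.

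Col16a1 and Col12a1, which attach to the surface of fibrils or basement membranes and belong to the FACIT collagens, both rose. Col16a1 (ENSMUSG00000040690) had 329, 266 and 357 in Control and 807, 935 and 813 in Sox9cKO, a 2.68-fold rise with tight groups. Its log2 fold change was 1.43 ± 0.15 (standard error; limma, adjusted p = 0.00529), and it was called in all 17 alternative fits (adjusted p up to 0.0304). Col12a1 (ENSMUSG00000032332) had 74.0, 79.8 and 86.4 in Control and 164, 175 and 190 in Sox9cKO. The log2 fold change was 1.13 ± 0.17 (standard error; limma, adjusted p = 0.0164), and the call was lost without Control replicate 1 or 3 and without Sox9cKO replicate 2 or 3 (adjusted p up to 0.086). Neither gene was lowest in the samples with low endothelial sums. Col20a1, the FACIT gene with the highest level per kilobase in Control (119 normalized reads), had means of 611 ± 179 and 480 ± 119 (SD, n = 3; limma, adjusted p = 0.586). Col14a1 had overlapping groups as well, with means of 225 ± 64.6 and 203 ± 92.3. Thus 2 of 5 tested FACIT genes were called, both higher, against 2.03% of all tested genes called higher. These 5 include Col9a3, given above and wholly lower in Sox9cKO. Their median log2 fold change was -0.195, with 2 of the 5 above 0.

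Type VI collagen, which forms beaded filaments between basement membrane and stroma, had 5 tested chains and none called, against 2.97% of all tested genes. The median log2 fold change of the 5 was 0.80, against 0.036 over all tested genes. Col6a1, Col6a2 and Col6a3, the classical chains, had means of 65.6 ± 18.4, 59.2 ± 26.1 and 138 ± 59.0 in Control and 113 ± 62.5, 109 ± 67.7 and 170 ± 94.5 in Sox9cKO (SD, n = 3). Their groups overlapped, and adjusted p-values from limma were between 0.459 and 0.818. Col6a5 had 14.3, 26.9 and 26.5 in Control and 101, 47.3 and 37.4 in Sox9cKO, without overlap (limma, log2 fold change 1.34, adjusted p = 0.178). Col6a6 had means of 19.3 ± 7.38 and 49.6 ± 41.7, with Sox9cKO replicate 1 far above the rest at 97.5. Col6a4 had 7, 4 and 2 reads in Control and none in Sox9cKO, below the minimum mean.

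Among anchoring and transmembrane collagens, Col13a1 spread most within a group. It had 219, 612 and 31.1 in Control and 604, 784 and 72.5 in Sox9cKO, low in replicate 3 of both groups like the endothelial markers. The adjusted p from limma was 0.731, and 0.0447 with the block (standard error of the log2 fold change 1.23), and the log2 fold change was -0.17 without Control replicate 3. Col7a1, which forms the anchoring fibrils under stratified epithelia, had 250, 253 and 356 in Control and 145, 121 and 269 in Sox9cKO. Each Sox9cKO value was below the Control value of the same number, though the groups overlapped (adjusted p = 0.274 from limma, and 0.0474 with the block). Col23a1 (109, 76.1 and 103 in Control, 82.6, 52.9 and 71.3 in Sox9cKO) and Col25a1 (means of 12.8 ± 8.97 and 9.42 ± 9.97) had overlapping groups and were not called. Thus 0 of 4 tested genes of this role were called, against 2.97% of all tested genes, with a median log2 fold change of -0.51.

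The 13 genes under the minimum mean had means of at most 10.7 normalized reads in either group. Beside Col9a1, Col9a2, Col11a1 and Col6a4 they were Col19a1, Col8a1, Col8a2, Col10a1, Col17a1, Col22a1, Col24a1, Col26a1 and Col28a1. Without the filter Col9a1 alone of the 13 passed the limma test. Col19a1 had 8, 1 and 6 reads in Control and none in Sox9cKO. Col8a1, of a short-chain network collagen, had 7, 6 and 7 reads against 4, 4 and 2. Col17a1, the collagen of hemidesmosomes, had 14, 9 and 5 reads in Control and 8, 12 and 9 in Sox9cKO, so that it stayed near the detection limit in samples where Lama3 and Lamb3 had between 646 and 3716 reads.

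Genes that fold, process or bind these proteins were examined as 3 lists. Over all tested genes 2.03% were called higher and 0.939% lower, with a median log2 fold change of 0.036. Of 30 genes for folding, export and crosslinking of collagen, 28 were tested, 2 were called higher and 0 lower, with a median log2 fold change of 0.37. They were Colgalt1, which adds galactose to collagen hydroxylysine, at 576 ± 13.4 and 1136 ± 71.9 normalized reads (SD, n = 3; limma, log2 fold change 0.98, adjusted p = 0.00609), and Bmp1, the protease that removes procollagen C-propeptides, at 635 ± 39.9 and 1141 ± 169 (log2 fold change 0.84, adjusted p = 0.0285). Of 18 other basement membrane genes, 16 were tested, 1 was called higher and 0 lower, with a median of 0.27. That gene was Npnt, which encodes the integrin ligand nephronectin, with 129, 109 and 105 in Control and 544, 369 and 568 in Sox9cKO (limma, log2 fold change 2.08, standard error 0.21, adjusted p = 0.00445). Of 13 receptor genes, 12 were tested, 1 was called higher and 0 lower, with a median of 0.39. It was Itga2, the alpha chain of a collagen-binding integrin, with 451, 1354 and 1363 in Control and 3375, 7967 and 6701 in Sox9cKO (limma, log2 fold change 2.58, standard error 0.49, adjusted p = 0.0405). The groups did not overlap for any of these 4 genes, which were picked by their calls in the same fit. Of all tested genes 24.2% had groups apart. In the 3 lists 12, 2 and 4 tested genes lay wholly higher in Sox9cKO and 2, 1 and 2 wholly lower. The shares of all tested genes were 13.4% and 10.8%. Colgalt1 and Npnt stayed called in every alternative fit. Bmp1 kept its call without Sox9cKO replicate 1 and lost it without any other single sample (adjusted p up to 0.127), and Itga2 lost it whichever single sample was left out (0.05 to 0.114). Without the intensity trend both lost the call (0.0718 for Bmp1, 0.0805 for Itga2), as did Bmp1 with quantile normalization (0.0582). With the block 7, 3 and 4 genes of the lists were called higher and 1, 1 and 0 lower. The shares of all tested genes with the block were 5.06% higher and 2.99% lower.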

How the data were processed

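RNA of 3 Control and 3 Sox9cKO samples of biliary epithelial cells was analysed. Per the labels' protocols, total RNA was depleted of ribosomal RNA, and stranded libraries with molecular identifiers were made. The signal deposited by the authors is a normalized read count, with 1 size factor for each library. The submitters' processing notes name DESeq2 1.36.0 and the build GRCm39, while aligner, annotation, strand setting and use of the identifiers are not given in the sources used here. Dividing each library by its lowest non-zero value gave whole reads for 100% of values (within 0.001 reads). The labels do not say whether samples came from separate animals, so p-values measure the spread between these samples.

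Values were tested as log2(value + 1) with limma 3.58.1 (R 4.3.3, intensity trend, two-sided) for genes with a mean of at least 10, with Benjamini-Hochberg adjustment over all genes tested and a threshold of 0.05. The pseudocount understates fold changes of scarce genes. Samples with the same replicate number in their titles deviated together (correlations of 0.207, 0.472 and 0.542 across genes), so fits with this number as a block are given where they change a call. edgeR 4.0.16 and DESeq2 1.42.0 were run on the reads as alternatives, and the scripts were tested on simulated data. Exon lengths (GENCODE M21) and promoters (RefSeq, GRCm38.p6) were matched by gene, and no gene coordinates of GRCm39 are given. The lengths join all annotated exons of a gene, so ranks and ratios per kilobase between genes depend on the annotation. The genes and lists were chosen with earlier results of these data known. Named are Sox9, called genes of these families, their partner chains, the most abundant gene per role, and called genes of the pathway lists. The result of 1 gene is not reported here. Others, and the cartilage set, were named after their values were seen.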

Additional observations from a re-analysis of the deposited data

How the results depend on the processing

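Each result was recomputed in 17 other fits. Among these families the 9 called genes kept their direction in all of them and stayed called in 119 of 152 fits, and most losses came from leaving out 1 sample. The number of genes called over the whole table was 510, and 1381 with the replicate block, 1267 with edgeR and the replicate block, 1240 with DESeq2, and 200 to 389 when 1 sample was left out. For the 46 tested genes of these families it was 9, and 23, 21 and 17 in the same fits, with all 9 included, and 1 to 7 when 1 sample was left out. The lowest value, 1 (Col16a1), came without Control replicate 1. It was 4 without Control replicate 3, 4 without Sox9cKO replicate 1 and 5 without Sox9cKO replicate 2. For the pathway lists it was 4, and 16, 16 and 10 in the same fits, 2 without the intensity trend, and 2 to 3 when 1 sample was left out. Sox9 stayed called throughout, between -0.93 and -0.88 when 1 sample was left out. Fits on fewer samples have less power, and the other causes were not tested. None of the 46 genes changed sign under another scaling, pseudocount, filter or tool. When 1 sample was left out, 9 genes that were not called changed sign, with log2 fold changes of -0.064 to 1.17 for Col1a2, -0.17 to 0.898 for Col3a1, -0.079 to 1.07 for Col5a2, -0.00093 to 1.002 for Col4a1, -0.15 to 0.975 for Col4a2, -0.036 to 0.307 for Col4a6, -0.175 to 0.573 for Col6a3, -0.543 to 0.0075 for Col14a1 and -0.17 to 2.08 for Col13a1. Without the filter on low values Col9a1 passed (adjusted p = 0.0254), and Col9a2, Col6a4, Col19a1 and Col8a1 did not (0.149, 0.0699, 0.129 and 0.396), where few reads limit the precision. At the minimum mean of 50, genes below it have no value.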
